A study of Mus musculus with 64 samples.

Results

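The spleens of 4 male mice lacking Hmgn2 were set against those of 4 male wild-type mice, all 21 weeks old, by bead arrays that read messenger RNA. The comparison was set by tissue and genotype label, with earlier results of these data known, and it takes 8 of the 64 arrays of the series. The knockout mice carried homozygous Hmgn2-/- alleles and the strain label C57BL/6, which the 4 wild types share, and no other allele or agent is named for either group. The labels do not state how the allele was made or whether littermates were used. Each array holds the RNA of 1 mouse, so the p-values below measure the spread between mice within a group.

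HMGN2 is a small, abundant protein of the high mobility group N family, which binds the nucleosome core and competes with the linker histone H1 for chromatin. Its relatives HMGN1, HMGN3 and HMGN5 share the nucleosome-binding domain, and HMGN1 and HMGN2 can stand in for each other at many sites. The spleen filters blood and houses B cells, T cells and macrophages, and in mice it is also a site of blood cell formation, so that red cell precursors, neutrophils and megakaryocytes add to its RNA. The question of the comparison is which transcripts differ in a spleen that has developed without HMGN2.

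Hmgn2 was the single gene of 8976 tested that passed the test, a share of 0.0111% (limma, adjusted p under 0.05). Its normalized log2 intensity was 12.21, 12.37, 12.51 and 12.06 on wild-type arrays 1 to 4, which the labels call A to D, and 5.02, 4.94, 4.51 and 5.19 on knockout arrays 1 to 4. Every knockout array lay far below every wild type, and the probe was above background on 2 of the 4 knockout arrays. The fitted log2 difference was -7.37 ± 0.16 (SE, n = 4 a group, limma adjusted p = 3.60e-08). Since the knockout signal lies near background, the size depends on the background correction, and it ran from -7.47 to -5.40 over the settings tried. Hmgn2 was read by 1 probe.

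The other 3 HMGN genes on the array did not pass the test. Hmgn1 read 12.40, 12.26, 12.15 and 12.31 in the wild types and 12.25, 12.29, 12.06 and 12.36 in the knockouts, a log2 difference of -0.04 ± 0.10. Hmgn3, at 10.34 to 10.52 in the wild types and 10.28 to 10.53 in the knockouts, differed by 0.05 ± 0.10. Hmgn5, the X-linked member, read 8.06 to 8.48 and 8.13 to 8.68, with a difference of 0.19 ± 0.14. The groups overlapped at all 3 genes. Their 95% intervals ran from -0.27 to 0.19 for Hmgn1, from -0.16 to 0.27 for Hmgn3 and from -0.13 to 0.51 for Hmgn5 on the log2 scale. All 3 intervals end below 0.58, the log2 value of a 1.5-fold gain.

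Among genes of chromatin outside the HMGN family, 0 passed the test. Of 10 other architectural proteins tested, among them HMG-box proteins and linker histones, 7 lay above 0 and 3 below, with a median log2 difference of 0.03. The linker histone gene H1f10 was their most different member. It read 4.91, 4.52, 5.01 and 4.95 in the wild types and 5.12, 5.47, 5.72 and 5.14 in the knockouts, with no overlap between the groups, and was above background on 3 wild-type and all 4 knockout arrays. Its difference of 0.52 ± 0.17 did not pass (adjusted p = 1.00). The 32 core histone genes had a median of 0.05, with 20 above 0, 12 below and 0 at an unadjusted p under 0.05. That direction followed single arrays: without wild type 3 or knockout 1, 30 of the 32 lay above 0 (medians 0.18 and 0.22), and without wild type 4 or knockout 3, 27 and 28 lay below (medians -0.10 and -0.12). Without both wild type 4 and knockout 3, 29 lay below (median -0.26). Of 42 remodellers and histone-modifying enzymes, 15 lay above 0 and 27 below, with a median of -0.05. Chd4, the ATPase of the NuRD complex, was at 9.63, 9.44, 9.60 and 9.58 in the wild types and 9.44, 9.23, 9.13 and 9.41 in the knockouts, a difference of -0.26 ± 0.10. Kdm5c, an H3K4 demethylase, differed by -0.21 ± 0.10, and neither gene passed although the groups did not overlap at either. Nucleotide excision repair, a process in which HMGN proteins have been studied, had a median of -0.01 over 20 genes, 9 above 0 and 11 below. For reading these counts, the median over all genes tested was -0.0013, with 49.6% of genes above 0 and 50.4% below.

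**Figure D1:**
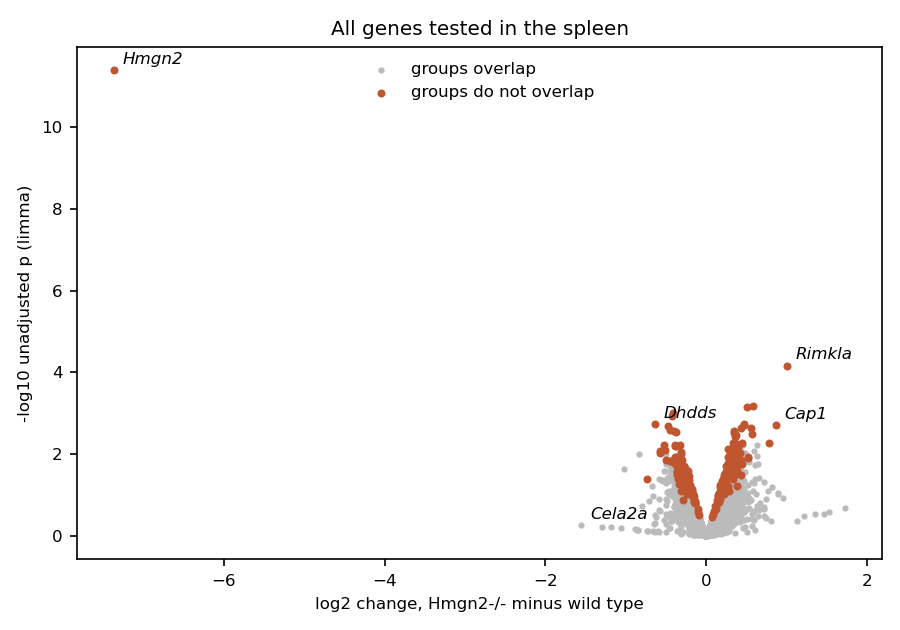
Each point is 1 of the 8976 genes tested, with its log2 difference (knockout minus wild type) on the x axis and the unadjusted p of limma, as -log10, on the y axis. Hmgn2 stands alone at the upper left, the 216 genes whose groups do not overlap are in colour, and pancreatic genes such as Cela2a have differences over 1 with large p.

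How close the groups were can be given as intervals. The standard error of a gene's log2 difference was 0.137 at the median. For 8602 genes (95.8%) the whole 95% interval lay within a difference of 1 on the log2 scale, which is a factor of 2, and for 7179 genes (80.0%) it lay within a factor of 1.5. An unadjusted p under 0.05 was reached by 318 genes (3.54%), 170 of them (1.89%) higher and 148 (1.65%) lower in the knockout, and 5 had a p under 0.001. The groups did not overlap at 216 genes (2.41%), 118 higher and 98 lower. Beside the named genes, 783 detected probes without a gene name were tested in a fit of 13069 probes, and 0 of the 783 passed.

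The genes with the smallest p after Hmgn2 include 3 from its own chromosome. Rimkla, which encodes an enzyme that joins N-acetylaspartate and glutamate, read 4.91, 4.90, 4.99 and 5.15 in the wild types and 5.68, 5.84, 6.16 and 6.32 in the knockouts. All 4 knockouts were above all 4 wild types, and the wild types lay near the lowest detected signal of an array (4.79 to 4.96). The log2 difference was 1.01 ± 0.15 with a limma adjusted p = 0.305, and a further probe of Rimkla differed by 0.80. Cap1, a regulator of actin filament turnover, read 10.49, 9.72, 9.49 and 9.85 in the wild types against 10.69, 10.61, 10.73 and 11.00 in the knockouts. The groups did not overlap, though wild type 1 came close to the lowest knockouts, and the difference of 0.87 ± 0.20 did not pass. Dhdds, a subunit of the enzyme that builds dolichol, the lipid carrier of protein glycosylation, read 5.92, 6.06, 6.49 and 6.39 against 5.55, 5.78, 5.53 and 5.47. Every knockout was lower than every wild type, the difference was -0.63 ± 0.15, and a further probe differed by -0.57. Both Cap1 and Dhdds had an adjusted p = 1.00 over the 8976 genes.

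**Figure D2:**
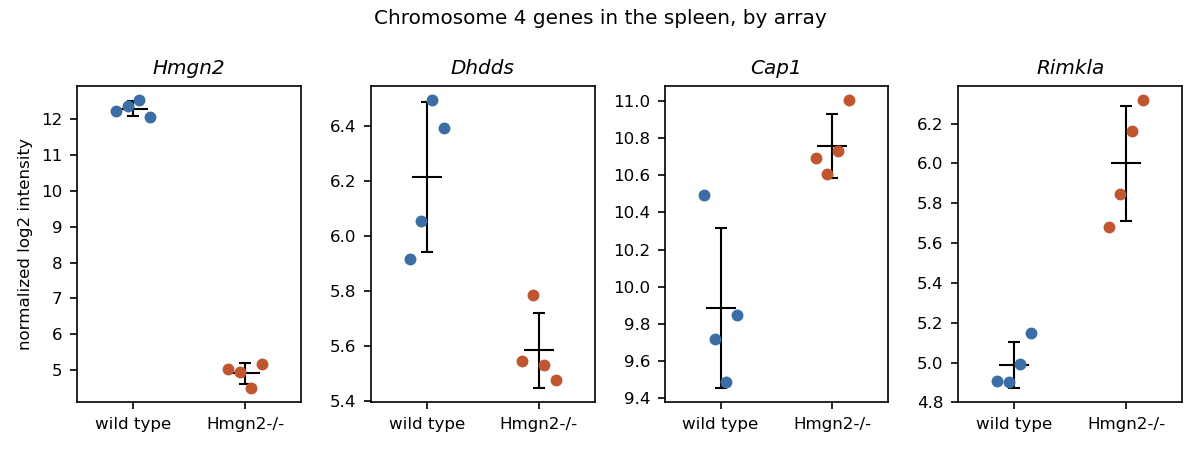
Normalized log2 intensity of Hmgn2, Dhdds, Cap1 and Rimkla on the y axis for the 4 wild-type and 4 Hmgn2-/- spleens, 1 point per array, with the mean and SD of each group as a bar. The groups separate at all 4 genes, with a far larger gap at Hmgn2, and the y axes differ between panels.

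In the order of tested genes along chromosome 4, taken from the RefSeq gene table of GRCm38.p6, Dhdds is the next gene after Hmgn2. Cap1 and Rimkla lie 93 and 105 tested genes to the other side. Of the 20 nearest tested genes, 10 on each side, only Dhdds had an unadjusted p under 0.05 (1 of 20, against 3.54% of all genes), and the differences of the other 19 ran from -0.25 (Ahdc1) to 0.35. Of the 554 tested genes of chromosome 4, 21 (3.79%, against 3.54% of all genes) had a p under 0.05. A p under 0.01 was reached by 8 (1.44%). Both counts hold Hmgn2 itself and also Rimkla, Cap1 and Dhdds, which were named for their small p on these arrays. The share at 0.01 was the largest among the chromosomes, followed by those of chromosomes 8 (1.05%, 5 genes) and 12 (1.04%, 3 genes). It was 0% on chromosomes 10, 16 and 18, so the ranking rests on few genes. Chromosome X had the largest share at 0.05, with 16 of 280 (5.71%). Among the 8 was Coa7, an assembly factor of cytochrome c oxidase, at 6.73, 6.21, 6.81 and 6.33 in the wild types and 5.98, 5.87, 6.09 and 6.05 in the knockouts. Its difference of -0.52 ± 0.15 did not pass. Whether sequence flanking the targeted allele, the allele itself or the loss of HMGN2 goes with the levels of these genes cannot be told apart in a single knockout line.

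**Figure D3:**
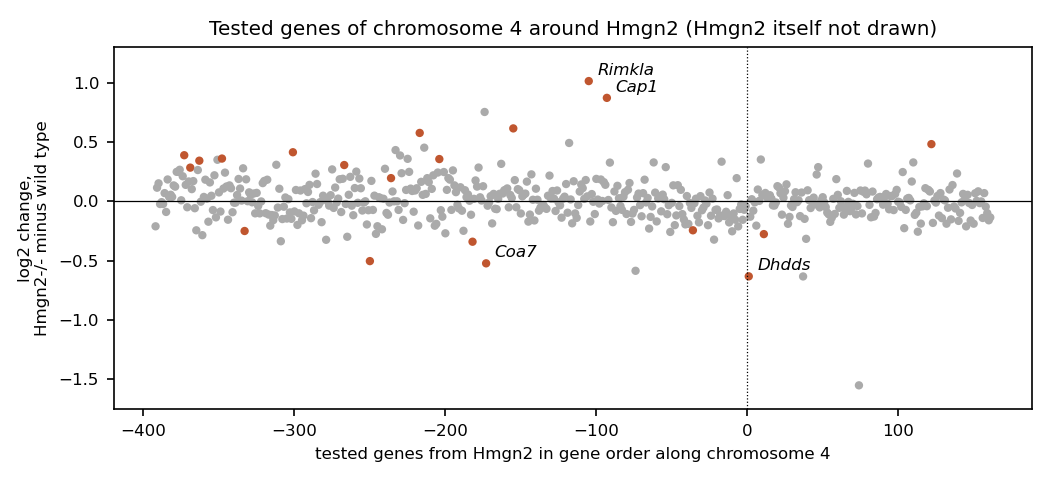
The log2 difference (knockout minus wild type, y axis) of the tested genes of chromosome 4 other than Hmgn2, placed by their order from Hmgn2 (x axis). Points in colour have an unadjusted p under 0.05. Dhdds lies beside Hmgn2 among neighbours near 0, and Cap1 and Rimkla lie apart from it on 1 side. The lowest point, at -1.55, is the pancreatic gene Cela2a.

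The promoter windows of these 4 genes are shown because these are the chromosome 4 genes with the smallest p-values. Each runs from 250 bases before to 50 bases after the RefSeq start of the gene in GRCm38.p6, all on the minus strand. They are at chr4:133967942-133968241 (Hmgn2), chr4:134000833-134001132 (Dhdds), chr4:122886027-122886326 (Cap1) and chr4:119492549-119492848 (Rimkla). Capitals mark CACGTG, which reads the same on both strands, and CCAAT or its reverse complement ATTGG.
Hmgn2: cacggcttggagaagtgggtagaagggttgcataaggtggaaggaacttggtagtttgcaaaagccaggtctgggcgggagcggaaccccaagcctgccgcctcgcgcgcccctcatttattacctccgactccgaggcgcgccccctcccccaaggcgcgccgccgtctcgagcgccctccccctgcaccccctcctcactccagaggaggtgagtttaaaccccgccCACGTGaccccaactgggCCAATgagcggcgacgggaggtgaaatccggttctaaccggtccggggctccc
Dhdds: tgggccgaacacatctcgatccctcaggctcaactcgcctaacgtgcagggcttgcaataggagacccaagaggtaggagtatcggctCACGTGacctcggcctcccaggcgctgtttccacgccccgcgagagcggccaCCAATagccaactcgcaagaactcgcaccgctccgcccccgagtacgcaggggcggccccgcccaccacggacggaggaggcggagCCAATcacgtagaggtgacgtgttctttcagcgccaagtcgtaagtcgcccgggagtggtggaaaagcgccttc
Cap1: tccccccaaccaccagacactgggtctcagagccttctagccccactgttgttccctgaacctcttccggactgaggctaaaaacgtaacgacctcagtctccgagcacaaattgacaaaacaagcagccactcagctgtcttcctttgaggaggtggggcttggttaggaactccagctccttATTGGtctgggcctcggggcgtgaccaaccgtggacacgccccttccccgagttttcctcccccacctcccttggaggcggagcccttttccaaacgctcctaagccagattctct
Rimkla: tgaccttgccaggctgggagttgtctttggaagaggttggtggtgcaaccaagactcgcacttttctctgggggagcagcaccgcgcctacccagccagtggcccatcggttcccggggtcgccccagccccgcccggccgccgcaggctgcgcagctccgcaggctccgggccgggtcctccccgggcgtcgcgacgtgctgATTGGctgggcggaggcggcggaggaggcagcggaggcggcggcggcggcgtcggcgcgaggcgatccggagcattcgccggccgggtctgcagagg
The windows of Hmgn2 and Dhdds each hold 1 CACGTG, a motif found in 7.15% of the 32851 promoter windows of the table, and those of Cap1 and Rimkla hold 0. A CCAAT on either strand is in all 4, with 2 in Dhdds and 1 in the others, and in 37.4% of all windows. CG dinucleotides number 25 in Hmgn2, 30 in Dhdds, 11 in Cap1 and 36 in Rimkla, against a median of 7 over all windows. The motifs overlap each other nowhere in these windows, and a match describes the letters only.

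Outside chromosome 4, no gene came closer to the threshold than an adjusted p = 1.00, and the values of the next genes are given as levels. Ido1, an enzyme of tryptophan breakdown, read 4.94, 4.77, 4.50 and 4.75 in the wild types, where 1 of 4 arrays had it above background. It read 5.23, 5.47, 5.38 and 5.24 in the knockouts, where all 4 did. The groups did not overlap, and the difference was 0.59 ± 0.12. Sec24d, a coat protein of vesicles leaving the endoplasmic reticulum, read 6.13, 6.35, 6.09 and 6.25 against 6.76, 6.74, 6.80 and 6.55, higher by 0.51 ± 0.10. Amz1, a metallopeptidase gene, was tight within groups at 6.13, 6.06, 6.04 and 6.07 against 5.79, 5.62, 5.65 and 5.58, a difference of -0.41 ± 0.09. Slc37a4, the glucose 6-phosphate transporter of the endoplasmic reticulum, read 5.14 to 5.22 in the wild types. It was above background on 0 of 4 knockout arrays. With knockout signals raised to the lowest detected signal of their array, the group means lay 1.19-fold apart, a value without an error. Cep164, a centriole protein, was likewise above background on 0 knockout arrays, and its means lay 1.04-fold apart by the same measure. Both genes entered the test through the wild-type arrays alone, and neither passed.

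Of the others with the smallest p, the higher ones were Bbs5 (0.48 ± 0.11), a subunit of the ciliary BBSome, Hspa2 (0.47 ± 0.11), a heat shock protein of the HSP70 family, Tex2 (0.43 ± 0.10), Yme1l1 (0.56 ± 0.14), a protease of the inner mitochondrial membrane, and Golph3l (0.34 ± 0.08), a Golgi protein. The further probes of 3 of these differed by less, at 0.17 for Hspa2, 0.24 for Tex2 and 0.12 for Yme1l1, and the Yme1l1 probes were of similar brightness (means of 7.63 and 7.31). The lower ones were Ccdc9 (-0.48 ± 0.11) and Ago2 (-0.45 ± 0.11), the slicer protein of RNA interference. At Bbs5 the wild types read 5.76, 5.97, 6.20 and 6.08 and the knockouts 6.55, 6.45, 6.49 and 6.43. At Ago2 the wild types read 7.01, 7.08, 7.42 and 7.07 and the knockouts 6.75, 6.60, 6.72 and 6.69. None of these groups overlap, which holds for 2.41% of all genes. Since the genes were picked by their p on the same arrays, the lack of overlap adds no support.

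Among genes with no overlap, ranked by the size of the difference, Reln, a secreted glycoprotein, read 6.98, 8.02, 7.80 and 7.70 in the wild types and 8.24, 8.22, 8.55 and 8.62 in the knockouts. The difference of 0.78 ± 0.22 rests in part on the low wild type 1. Snrpn, an imprinted gene of a splicing protein, read 6.70, 6.59, 6.23 and 6.56 against 6.98, 6.85, 7.37 and 7.19, and the interferon-inducible Ifi205 5.75, 5.56, 5.25 and 5.54 against 6.40, 5.83, 5.76 and 6.22. A further probe of Ifi205, close to background, differed by 0.03. On the lower side, Mindy2, a deubiquitinase, read 7.77, 7.69, 7.86 and 7.89 against 7.39, 7.38, 5.96 and 7.52. Its difference of -0.74 ± 0.31 was drawn out by knockout 3. Prr7 and Fam83e (-0.57 ± 0.17 each), Cd300lf (-0.51 ± 0.15), an inhibitory receptor of myeloid cells, and C1rl (-0.50 ± 0.16), related to complement C1r, were also lower without passing. Knockout 3 gave the lowest level of Prr7, Fam83e and C1rl too, at 4.55, 4.50 and 4.42, and these genes were above background on 3, 3 and 2 of the 4 knockout arrays.

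Mice of the same group differed from each other in several marker lists. Of the 108 genes with an SD over 1 across the 8 arrays, 27 belong to the exocrine pancreas list, 16 to erythroid cells, 9 to neutrophils and 3 to the cell cycle, and Hmgn2, which separates the groups, is another. The first principal component held 54.4% of the variance, the second 20.9% and the third 8.78%. Knockout 3 had a mean correlation with the other arrays of 0.939, where the other 7 had 0.966 to 0.978. Cytosolic ribosomal proteins had a median of 12.89 on that array and 13.40 to 13.45 on the others. The probes detected per array ran from 12698 to 13411, and the 95th percentile of raw signal from 1109 to 1409. A two-sided exact permutation test passed for neither measure (p = 0.114 and p = 1, where 0.0286 is the smallest p that 4 against 4 arrays allow).

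Transcripts of pancreatic digestive enzymes were present in unequal amounts. Cela2a, a pancreatic elastase, read 4.41, 9.88, 10.10 and 13.62 in wild types 1 to 4 and 4.38, 7.81, 14.54 and 5.09 in knockouts 1 to 4. Wild type 4 and knockout 3 were the highest of their groups, and both groups also held arrays near background. Amylase Amy2a5, colipase Clps and carboxypeptidase Cpb1 followed the same course, with levels in knockout 3 of 13.92, 14.30 and 13.96. The list median was 4.32, 7.45, 7.87 and 11.39 in the wild types and 4.33, 6.05, 13.97 and 4.50 in the knockouts. The summed linear intensity of its 27 tested members ran from 998.7 to 84480 in the wild types and from 1120 to 412200 in the knockouts. Amy2a5, Clps and Cpb1 were above background on 3 wild-type and 2 knockout arrays each. Hormone genes of pancreatic islets were not detected on enough arrays to be tested, 0 of 7. With 20 members below 0 and 7 above, the median difference was -0.59, and single genes such as Cela2a had errors larger than their difference (-1.55 ± 2.43). The list median turned to 0.59 without wild type 4, to 0.35 without knockout 1 and to 0.27 without knockout 4, and it was -2.80 without knockout 3, -1.53 without wild type 1 and -0.08 without knockout 2. Klk1, a kallikrein, and Gp2, a zymogen granule protein, were the members with the largest positive differences, 1.36 ± 1.23 and 1.13 ± 1.38, and knockout 3 set both, at 12.90 and 13.42. In bulk tissue, fewer cells of a type and less RNA per cell cannot be told apart, and the source of the pancreatic transcripts was not tested.

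Erythroid and cell cycle transcripts also differed between mice of a group. The erythroid list had medians of 6.07, 9.29, 9.17 and 6.16 in wild types 1 to 4 and 5.54, 8.00, 9.75 and 8.28 in knockouts 1 to 4. The cell cycle list read 7.39, 9.09, 9.15 and 7.48 and then 7.52, 8.36, 9.43 and 8.43. In both lists, wild types 2 and 3 and knockout 3 were high and wild types 1 and 4 and knockout 1 were low. Alas2, the first enzyme of heme synthesis in red cells, read 12.14, 13.32, 12.78 and 11.33 against 12.04, 12.49, 12.71 and 12.87. Of 26 erythroid genes, 19 lay above 0 and 7 below (median 0.08), and of 37 cell cycle genes, 34 above and 3 below (median 0.13), with 0 at an unadjusted p under 0.05 in either list. These counts turned over with the arrays used. Without wild type 4 and knockout 3, the arrays with most pancreatic RNA, 1 erythroid gene lay above 0 and 25 below (median -0.92), and 0 cell cycle genes above and 37 below (median -0.37). Of the arrays left out singly, wild type 1, wild type 4 and knockout 3 each turned both medians, to between -0.45 and -0.33 for erythroid and between -0.15 and -0.10 for cell cycle genes. Leaving out wild type 2, wild type 3 or knockout 1 raised them to between 0.46 and 0.57 and between 0.32 and 0.38.

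**Figure D4:**
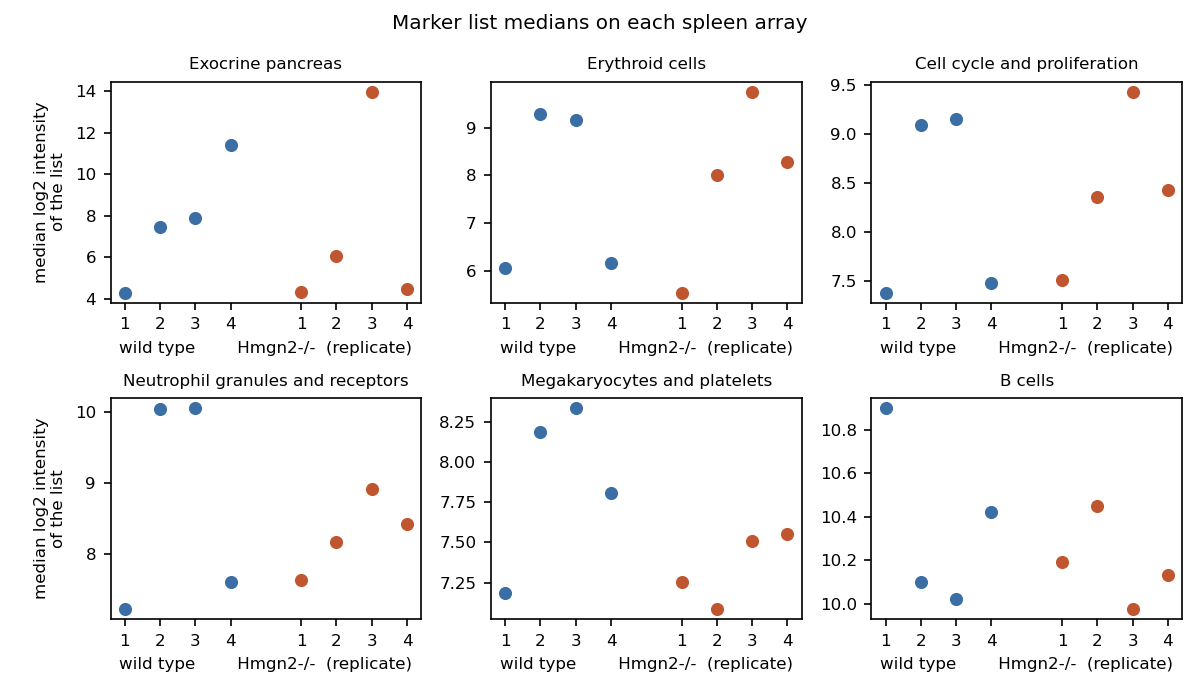
Median normalized log2 intensity of 6 marker lists (y axis) on each spleen array, wild types at the left and Hmgn2-/- at the right of each panel (x axis, replicate number). Pancreatic genes reach 11.39 in wild type 4 and 13.97 in knockout 3, and erythroid, cell cycle and neutrophil genes are high together in wild types 2 and 3.

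Neutrophil genes lay lower in the knockout as a list, though no member passed. All 21 tested members of 27 on the array had a difference below 0 (where 50.4% of all genes did), with a median of -0.39. Of the 21, 1 had an unadjusted p under 0.05, against 1.65% of all genes on the lower side. The list median was 7.23, 10.03, 10.05 and 7.60 in the wild types and 7.64, 8.18, 8.91 and 8.42 in the knockouts. Wild types 2 and 3 were the high arrays, and wild types 1 and 4 lay below the lowest knockout. Csf3r, the receptor for granulocyte colony-stimulating factor, read 8.46, 10.23, 10.04 and 9.08 against 8.74, 8.99, 8.91 and 8.82 (-0.59 ± 0.35). S100a9, a subunit of the alarmin calprotectin, read 10.76, 12.98, 12.95 and 11.21 against 11.16, 11.48, 12.16 and 11.41 (-0.42 ± 0.50), and its partner S100a8 differed by -0.29 ± 0.41. The chemokine receptor Cxcr2 (-0.39 ± 0.26), the peptidoglycan-binding Pglyrp1 (-0.37 ± 0.26) and the cystatin-like Stfa1 lay on the same side, with overlap. Stfa1 is the member at an unadjusted p under 0.05, and it was above background on 1 of 4 knockout arrays, so that its fitted -0.53 ± 0.23 is not an exact size. Without wild type 2 the list had 8 members above 0 and 13 below (median -0.07), and without wild type 3 it had 9 above and 12 below (median -0.08). Without knockout 1 it had 5 above and 16 below, and without knockout 2, 4 above and 17 below. Without wild type 1, wild type 4 or knockout 3 all 21 lay below 0, with medians of -0.91, -0.72 and -0.68, and without the 2 arrays rich in pancreatic RNA all 21 did, with a median of -0.97. The summed linear intensity of the list was 9785 to 44020 in the wild types and 12070 to 26310 in the knockouts.

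Megakaryocyte and platelet genes also lay lower as a list, and no member passed. All 17 tested members lay below 0 (where 50.4% of all genes did), with a median of -0.23. Of the 17, 1 had an unadjusted p under 0.05, against 1.65% of all genes on the lower side. Itga2b, the platelet integrin chain, read 7.18, 8.19, 8.33 and 7.94 in the wild types and 7.25, 7.09, 7.51 and 7.55 in the knockouts, a difference of -0.56 ± 0.24. Wild type 1 lay among the knockouts and the other 3 wild types above them. The clotting factor gene Vwf (-0.37 ± 0.23) and platelet factor Pf4 (-0.23 ± 0.27) overlapped between the groups. Without wild type 2 the list had 5 members above 0 and 12 below (median -0.11), and without wild type 3 it had 7 above and 10 below (median -0.06). Without knockout 2 the median was -0.12, and without wild type 1 it was -0.44.

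Among resident immune cells, no list held a gene that passed. B cell genes had list medians of 10.02 to 10.90 in the wild types and 9.97 to 10.45 in the knockouts. Of its 14 tested genes 3 lay above 0 and 11 below, with a median of -0.07, and without wild type 1 or without knockout 3 the median was 0.07 or 0.03. The early B cell factor Ebf1 read 6.30, 5.41, 5.99 and 6.96 against 6.01, 5.40, 5.14 and 5.44 (-0.67 ± 0.31), and the inhibitory receptor Cd22 differed by -0.26 ± 0.18. Of 6 marginal zone B cell genes, 3 lay on each side of 0. Dtx1, a ligase of the Notch pathway on which marginal zone B cells depend, read 10.35, 9.87, 9.96 and 10.00 against 10.00, 9.65, 9.48 and 9.71 (-0.34 ± 0.14), and Asb2 was at 0.25 ± 0.14.

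Germinal centre genes were the list with the highest median, 0.31, with all 4 tested members of 7 on the array above 0 and 2 of them at an unadjusted p under 0.05, against 1.89% of all genes on the higher side. S1pr2, the receptor that keeps B cells in the germinal centre, read 5.60, 5.70, 5.65 and 5.62 in the wild types and 6.00, 5.86, 6.42 and 6.10 in the knockouts. The wild types lay close together and every knockout was above them, and the difference was 0.45 ± 0.12. Gcsam, a germinal centre signalling protein, read 5.37, 5.68, 5.88 and 5.66 against 5.89, 6.44, 6.15 and 5.84 (0.43 ± 0.16). Bcl6, the master regulator of the germinal centre that other cells also express, differed by 0.19 ± 0.15. The list median stayed between 0.17 and 0.35 over the settings tried, and over arrays left out singly it had 3 or 4 members above 0.

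Of 22 T cell genes, 10 lay above 0 and 12 below, with a median of -0.03. Without knockout 3, 16 lay above and 6 below (median 0.13). Without wild type 4 and knockout 3, a setting chosen after seeing the data, 19 lay above and 3 below (median 0.21). Of the 19, 6 had an unadjusted p under 0.05, as had 589 of all 8976 genes in that setting. Without knockout 2, 5 lay above and 17 below (median -0.06). The inhibitory receptor Ctla4 read 6.14, 6.38, 6.64 and 6.75 against 6.97, 7.08, 6.67 and 6.67 (0.37 ± 0.16). The coreceptor Cd4 was at -0.37 ± 0.20, with overlap. It was above background on 3 of 4 knockout arrays and lowest in knockout 3, at 4.56. Ctla4's activating counterpart Cd28 was at 0.32 ± 0.24 by its brightest probe, and its 2 further probes were at -0.01 each. Natural killer genes had a median of 0.12, with 10 of 13 above 0, among them the transcription factor Tbx21 (0.30 ± 0.17), read highest in knockout 1. The median was 0.02 without wild type 3. It was 0.30 in the setting without wild type 4 and knockout 3, with all 13 above 0 and 5 among the 589 at an unadjusted p under 0.05. Plasma cell genes had a median of 0.03 (6 of 11 above 0), which lay between -0.08 and -0.01 without wild type 1, 3 or 4 or knockout 1 or 2. Jchain, which joins polymeric antibodies, read 5.01, 5.61, 5.67 and 6.33 against 6.23, 5.91, 6.13 and 6.01 (0.41 ± 0.24), with the spread in the wild types.

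Macrophages of the marginal zone, which catch particles from the blood, had 3 of 4 genes above 0 and a median of 0.30. Cd209b, the SIGN-R1 receptor for polysaccharides, read 8.72, 9.06, 8.62 and 8.40 in the wild types and 8.97, 9.33, 9.02 and 9.52 in the knockouts (0.51 ± 0.17), and its 2 further probes differed by 0.42 and 0.45. Siglec1, the sialoadhesin of metallophilic macrophages, read 7.66, 7.46, 7.82 and 7.61 against 7.88, 7.88, 7.85 and 8.26 (0.33 ± 0.13), without overlap and highest in knockout 4. The scavenger receptor Marco differed by 0.28 ± 0.15. The remaining gene, Nr1h3, which had the highest mean level of the list, lay below 0, and its further probe differed by -0.08. Without knockout 4 the list median was 0.19, and over all settings it stayed between 0.19 and 0.36. Red pulp macrophages had 11 of 16 genes above 0 and a median of 0.07, with the hemoglobin scavenger receptor Cd163 at 0.45 ± 0.19 and the mannose receptor Mrc1 at 0.32 ± 0.15. Without wild type 2 all 16 lay above 0 (median 0.16). Of these, 3 had an unadjusted p under 0.05, as had 384 of all 8976 genes in that setting. Without wild type 4, 8 lay above 0 (median -0.00), and without wild type 1, 9 did (median 0.01).

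Dendritic cells had 7 of 10 genes above 0 (median 0.13), with 1 member at an unadjusted p under 0.05 on each side. Of all genes, 1.89% were at such a p on the higher side and 1.65% on the lower. Without wild type 3 or knockout 1 the list had 5 on each side of 0 (medians -0.00 and 0.01), and without wild type 4 and knockout 3 it had 9 above (median 0.29). Siglech, a receptor of plasmacytoid dendritic cells, read 9.03, 8.57, 8.34 and 9.45 against 9.76, 9.03, 9.30 and 9.97 (0.67 ± 0.28). Zbtb46, a transcription factor of conventional dendritic cells, read 6.53, 6.55, 6.34 and 6.47 against 6.29, 6.24, 6.02 and 6.14, lower without overlap (-0.30 ± 0.10). Irf8, needed for both kinds, was at 0.19 ± 0.18 and stood out in knockout 1. Monocytes had a median of -0.02 over 6 genes, with F13a1 at -0.44 ± 0.42. Stromal genes had 10 of 18 above 0 (median 0.06), among them Tcf21 (0.35 ± 0.20), a transcription factor of spleen mesenchyme, and Pdgfra (0.32 ± 0.20). Without wild type 2, 8 stromal genes lay above 0 (median -0.04), and without knockout 3, 15 did (median 0.16). Endothelium, smooth muscle, adipocytes and mesothelium had medians of -0.00, -0.11, -0.06 and -0.12 over 14, 7, 5 and 5 genes. Without wild type 4 and knockout 3 all 4 medians lay above 0, at 0.06, 0.08, 0.09 and 0.21. Of the arrays left out singly, knockout 3 turned smooth muscle to 0.05 and endothelium to 0.09, and wild type 4 turned adipocytes to 0.09. Smaller turns came without wild type 1 (endothelium 0.03), wild type 4 (smooth muscle 0.002) and knockout 4 (adipocytes 0.04). Of the 39 lists with a tested member, 26 had a median on both sides of 0 over the arrays left out singly.

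**Figure D5:**
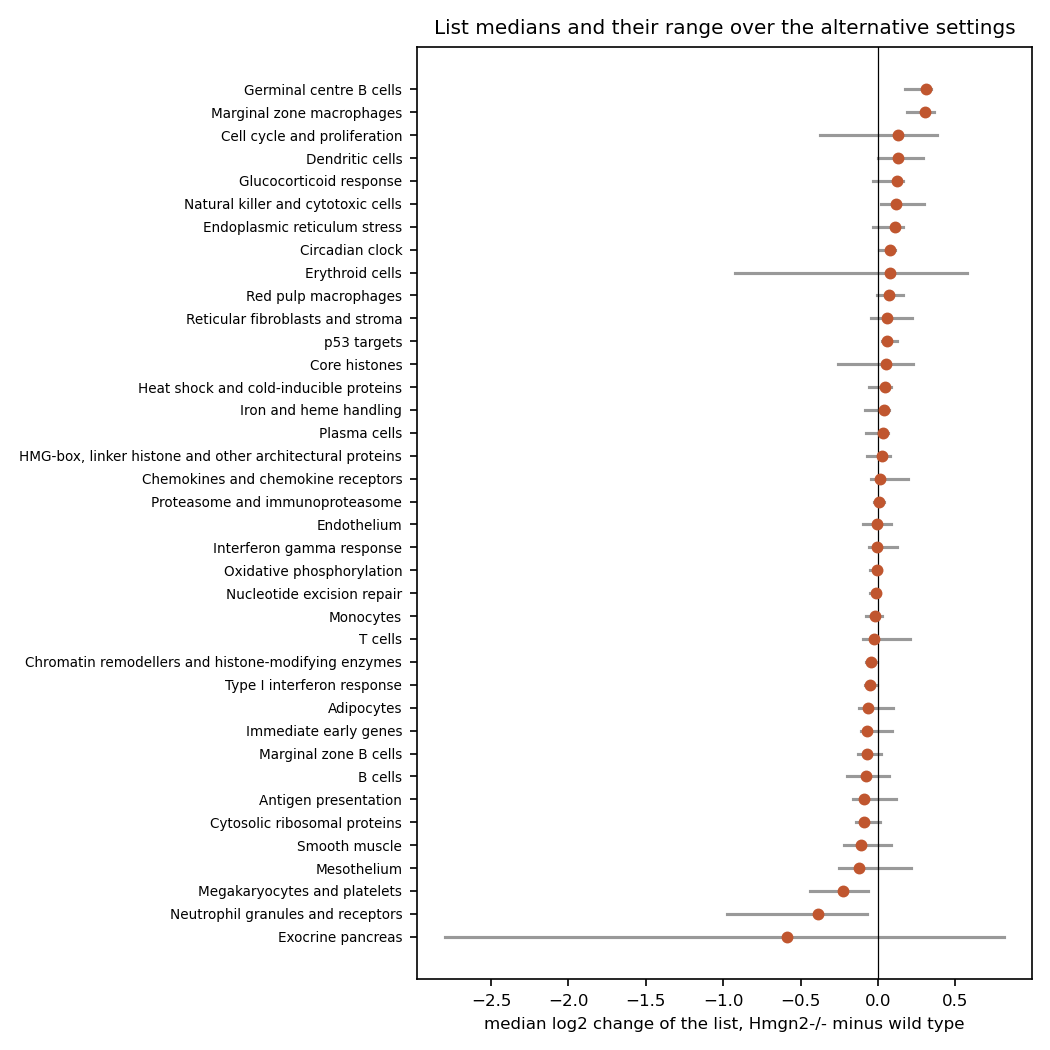
The median log2 difference (knockout minus wild type, x axis) of each gene list other than the HMGN family, as a point, with a line from the lowest to the highest median over the alternative settings. Exocrine pancreas, erythroid and neutrophil lists have the longest lines, and germinal centre B cells and marginal zone macrophages are the highest points.

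Lists of cellular processes other than the cell cycle gave medians between -0.09 and 0.12, with 0 members past the test. Cytosolic ribosomal proteins had 9 of 53 above 0 and 44 below (median -0.09), with Rps10 at 13.08, 12.99, 13.11 and 13.03 against 12.95, 13.08, 12.49 and 12.94 (-0.19 ± 0.13). Without knockout 3 the list had 29 above 0 and 24 below (median 0.01). Oxidative phosphorylation had 32 of 71 above 0 (median -0.01). Its members Cox6a2, the muscle form of a cytochrome c oxidase subunit, and Ndufb5 of complex I were higher without passing, by 0.60 ± 0.18 and 0.29 ± 0.09. The proteasome list had 19 of 37 above 0 (median 0.00), the type I interferon response 8 of 22 (median -0.05), the interferon gamma response 5 of 11 (median -0.01) and antigen presentation 5 of 18 (median -0.09). Without knockout 3, antigen presentation had 15 of 18 above 0 (median 0.07) and the interferon gamma response 8 of 11 (median 0.08).

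Immediate early genes, which rise within minutes of a stimulus or of handling, had 7 of 24 above 0 and 17 below (median -0.07), and 14 above and 10 below (median 0.02) without knockout 3. Junb read 8.82, 8.99, 9.21 and 9.30 against 8.79, 8.85, 8.50 and 8.74 (-0.36 ± 0.13) and Jund differed by -0.32 ± 0.13, while Egr1 lay the other way, at 9.98, 9.60, 9.71 and 10.28 against 10.44, 10.40, 9.87 and 10.39 (0.39 ± 0.18). Heat shock and cold-inducible genes had a median of 0.05. The cold-inducible RNA-binding protein Rbm3 read 11.59, 11.49, 11.44 and 11.58 against 11.51, 11.20, 10.71 and 10.93 (-0.44 ± 0.16), though its 2 further, dimmer probes were at -0.04 and -0.16, and the chaperonin Hspe1 was higher without overlap (0.28 ± 0.13). Chemokines and their receptors lay 17 above and 17 below 0 (median 0.01), and 22 above and 12 below (median 0.11) without knockout 3. The T cell receptor for interferon-induced chemokines, Cxcr3, read 7.51, 7.43, 7.52 and 7.40 against 7.81, 7.62, 7.77 and 8.04, without overlap (0.35 ± 0.11), and Ccl24 was at 0.62 ± 0.22, above background on 2 wild-type arrays. Endoplasmic reticulum stress genes had 13 of 19 above 0 (median 0.11, and 0.02 without knockout 3), with the chaperone Hspa5 at 0.36 ± 0.22 and the transcription factor Ddit3 at -0.28 ± 0.13. Glucocorticoid response genes had 6 of 10 above 0 (median 0.12, and -0.03 without knockout 3). Their member Pdk4, a kinase that spares glucose, read 6.28, 6.27, 6.26 and 6.99 against 7.08, 7.13, 6.23 and 7.70 (0.59 ± 0.30). Circadian clock, iron handling and p53 target lists had medians of 0.08, 0.04 and 0.06.

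By the mouse identifier in the labels, the same 8 mice gave brain, liver and thymus, which allowed the spleen difference to be tested against the difference in each other organ in 1 fit of 32 arrays with the mouse as a block (estimated correlation within a mouse 0.0172). Between spleen and brain 0 genes of 8976 differed in limma, between spleen and liver 1 gene did (0.0111%), and between spleen and thymus 1 (0.0111%). At an unadjusted p under 0.05 there were 105, 289 and 959 genes in the same order. The gene of the liver comparison was Hmgn2, at -7.32 in the spleen and -4.40 in the liver (difference -2.93 ± 0.23, adjusted p = 1.55e-09). Its wild-type level was 11.83 to 12.25 in the spleen and 9.08 to 9.23 in the liver. In the knockouts it was 4.44 to 4.91 and 4.29 to 5.02, and above background on 2 of 4 spleen and 0 of 4 liver arrays. With the knockouts at background in both organs, the difference between the organs follows the wild-type levels and does not measure the loss. The gene of the thymus comparison was D17H6S56E-5, at -0.26 in the spleen and 0.66 in the thymus (difference -0.92 ± 0.15, adjusted p = 0.0118). That call was lost with the replicate number as a block (0 genes). With median scaling the counts were 1, 2 and 112 for brain, liver and thymus.

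Rimkla, Cap1 and Dhdds can be followed over the organs in that fit, whose normalization over 32 arrays gives slightly other spleen values. Rimkla was at 0.79 ± 0.24 in the spleen, 1.03 in the thymus and 0.08 in the brain, and it was not detected in the liver. Cap1 was at 0.98 ± 0.29 in the spleen, 0.98 in the brain, 0.67 in the liver and 1.11 in the thymus. Dhdds was at -0.53 ± 0.19 in the spleen, -1.05 in the brain, -0.73 in the liver and -1.31 in the thymus. Rimkla and Cap1 passed in the thymus (adjusted p = 0.0139 and 0.0255) and Dhdds in the thymus and the brain (adjusted p = 0.000356 and 0.0234). No test of spleen against another organ passed for any of the 3, the smallest adjusted p being 0.278 for Dhdds against the thymus.

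A further test set the spleen difference of the Hmgn2 knockout against that of mice lacking both Hmgn1 and Hmgn2, which have wild types and a strain label (C57BL/6J) of their own. It was run without 2 of the 16 spleen libraries, 1 labelled wild type and 1 labelled double knockout, whose Hmgn2 level of 6.33 and 12.13 goes against the label. In this fit 0 of 8976 genes differed between the mutants (0%), with 676 at an unadjusted p under 0.05, and 0 differed with all 16 as labelled. Rimkla was at 0.99 ± 0.18 in the Hmgn2 knockout and -0.13 ± 0.21 in the double knockout. Cap1 was at 0.88 ± 0.18 and -0.10 ± 0.21 in the same order. The differences between the mutants, -1.12 ± 0.27 and -0.98 ± 0.27, had adjusted p = 0.607 and 0.634. Dhdds lay lower in both, by -0.62 ± 0.16 and -0.90 ± 0.18, with a difference between them of -0.28 ± 0.24. Double knockout spleens 2 to 4 read 9.69, 9.75 and 9.53 at Cap1, where their wild types read 9.85, 9.81 and 9.61 and the 4 Hmgn2 knockouts 10.55 to 10.95.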

How the data were processed

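RNA of 8 spleens was read on 8 Illumina bead arrays. Per the labels' protocols, total RNA was extracted with Trizol, cleaned on RNeasy columns and labelled with biotin by the MessageAmp kit, and GenomeStudio 2011.1 is named in the submitters' processing notes. The authors' deposited table gives, per the file headers, a raw signal intensity for each of 25697 probes on each array, and beside it a deposited detection p-value. A further deposited table holds normalized intensities, used as an alternative. The sources used here name neither the genome build nor the slide of an array, and precision rests on how many arrays there are.

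Raw intensities of the 8 arrays were corrected with limma 3.58.1 in R 4.3.3 (nec from the detection p-values, offset 16), quantile normalized and taken as log2 values. A gene was tested where its probe had a detection p under 0.01 on at least 4 of the 8 arrays, by the probe with the highest mean. Of the probes, 23978 had 1 gene in the platform annotation, 0 several and 1719 none, and 23962 symbols were updated through RefSeq (GRCm38.p6). Groups were compared with limma's moderated test, with Benjamini-Hochberg adjustment over 8976 genes at 0.05, and errors after ± are standard errors. The test was checked on simulated data. No arrays had identical values (0 pairs).

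The comparison and the 40 gene lists were chosen with earlier results of these data known, and of their 992 entries 913 were found on the array. Lists are described by counts and medians. Genes named are the HMGN family, the smallest p-values, the largest differences without overlap, neighbours of Hmgn2, list members with the smallest p or highest mean, the most variable genes, and the smallest p for differences between organs or mutants. Replicate numbers were not used as pairs: deviations of arrays of equal number correlated at 0.649, -0.194, 0.390 and -0.441.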

Additional observations from a re-analysis of the deposited data

Results flagged for a closer look

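Single arrays stood apart from the other 3 of their group, by Dixon's gap ratio, in 20 of 254 groups looked at, and chance flags about 1 in 20. Knockout 3 stood apart at pancreatic Cpb1 (13.97), Klk1 (12.9) and Gp2 (13.42), in the cytosolic ribosomal protein median (12.89), and at Mindy2 (5.96), Kdm5c (5.52), Golph3l (8.30), Egr1 (9.87) and D17H6S56E-5 (8.73). Wild type 4 stood apart at Gp2 (10.39), Pdgfra (9.14) and Pdk4 (6.99). Wild type 3 did so at Ago2 (7.42), Prr7 (5.76) and Fam83e (5.82), knockout 1 at Irf8 (11.02), Tbx21 (7.24) and Ddit3 (6.79), and knockout 4 at Vwf (8.35) and Siglec1 (8.26).

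The log2 difference at 2 genes was not the same in the spleen and another organ by the test of the difference itself. At Hmgn2 the spleen difference minus the liver difference was -2.93. The knockout signal was near background in both organs, on 2 of 4 spleen and 0 of 4 liver arrays above it, so this value follows the wild-type levels, with means of 12.05 in the spleen and 9.13 in the liver. At D17H6S56E-5 the spleen difference minus the thymus difference was -0.92.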

How the results depend on the processing

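The count of genes that passed, 1, and the gene itself, Hmgn2, were the same in all alternatives except 2. It was 0 among genes detected on all 8 arrays, where Hmgn2 is not tested because its signal is at background on 2 knockout arrays, and 0 in a fit on all 16 spleen arrays, where Hmgn2 was at -7.33 (adjusted p = 0.4), with 2 libraries against their labels in the shared spread. With each array left out in turn the count stayed at 1, from a lowest of 1 to a highest of 1, and with the replicate block it was 1. Leaving out wild type 4 and knockout 3, or adding the pancreatic or the pancreatic and erythroid list medians as covariates, also gave 1, settings chosen after seeing the data. The last of these raised the genes at an unadjusted p under 0.05 from 318 to 786. For the spleen against brain, liver and thymus, median scaling gave 1, 2 and 112 genes in place of 0, 1 and 1, and the replicate block 0, 1 and 0. For the 2 mutants, median scaling gave 1 in place of 0. The causes were not tested. Rimkla passed in 0 of 24 settings, with log2 differences of 0.34 to 1.38 and a smallest adjusted p = 0.122. Cap1 ran from 0.74 to 1.07 and Dhdds from -0.73 to -0.26, with 0 calls each. Signs turned for 6 named genes. Hmgn1 was at 0.0114 with cyclic loess, 0.0267 with array weights, 0.0273 without wild type 4 and knockout 3, and between -0.0876 (wild type 3) and 0.0174 (knockout 3) with 1 array left out. Alas2 was at -0.22 without wild type 4, -0.28 without wild type 4 and knockout 3 and -0.00696 with both covariates. Without wild type 4, Clps was at 0.15, Amy2a5 at 0.18 and Cpb1 at 0.45, and Cpb1 was at 0.0752 and 0.0742 without knockouts 1 and 4. Without knockout 3 they were at -3.42, -3.44 and -3.18. Gp2 was at -0.35 without knockout 3 and at 1.99 without wild type 4. Signals near the lowest detected level, as at Rimkla, Ido1 and Hmgn2 in the knockout, have folds that depend on the offset.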
